A study of Homo sapiens with 24 samples.

Results

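The genes of sterol and fatty acid synthesis, with their regulators and the genes of sterol transport, were followed in A375 cells, a human malignant melanoma line. The set held 34 named genes, and all 34 were present among the 25268 genes of the expression table. They were taken by name and divided by role into 7 genes of the mevalonate pathway, 11 from squalene to cholesterol, 5 that control SREBP, 5 of sterol transport and the liver X receptor, and 6 of fatty acid and lipid synthesis. The cells were kept for 24 or 48 h in 1 of 4 media: DMSO as the solvent control, nucleotides, 25 µM A771726, or A771726 plus nucleotides, and 3 libraries stood for each of the 8 groups. A771726 is the active metabolite of leflunomide and inhibits DHODH, an enzyme of de novo pyrimidine synthesis, and added nucleotides can bypass that block. Which nucleotides were added, and how much, is not stated in the labels. Nothing states that replicates came from separate cultures, so p-values reflect library-to-library spread that may be technical.

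Cells make cholesterol and unsaturated fatty acids under the control of the SREBP transcription factors, which are held in the endoplasmic reticulum by SCAP and the INSIG proteins while sterols are plentiful and are released when sterols fall. Oxysterols act the opposite way on the liver X receptors, which raise the export pumps ABCA1 and ABCG1 and the ubiquitin ligase MYLIP. Both systems act on SCD and SREBF1, and pigment cells and melanomas carry the full set.

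The values were FPKM (fragments scaled by transcript length and library size), so levels can be set beside each other between genes, but read depth is unknown without counts. In 22 libraries the FPKM summed to between 459325 and 773002. Replicate 2 of A771726 at 48 h had a sum of 2283900 and 16198 genes listed at 0 (between 6757 and 8101 elsewhere), and its median Spearman correlation with the rest was 0.325. It was left out of the fit. Replicate 1 of the same group had a sum of 231144 and a median correlation of 0.724, against 0.894 to 0.968 in the other 22, and was kept. The melanocyte lineage genes SOX10 and S100B were present at 24 h, with 24.7 to 36.2 FPKM and 25.3 to 27.5 FPKM in DMSO, while the pigment genes PMEL, MLANA, TYR and DCT did not pass 1.81, 0.521, 0.184 and 0.302 FPKM in any of 23 libraries.

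The promoters of the 3 genes on which the 24 h results turn are given here as the 250 bases before the annotated start (RefSeq, GRCh38.p14). They belong to STARD4 (chr5:111512536-111512785, minus strand), a carrier of cholesterol between membranes, ABCA1 (chr9:104928156-104928405, minus strand), the cholesterol export pump, and SCD (chr10:100346983-100347232, plus strand), the stearoyl-CoA desaturase that makes oleate. Capitals mark CCAAT boxes (CCAAT on either strand) in STARD4 and SCD, and in ABCA1 an E-box (CACGTG) followed by a direct repeat of the liver X receptor type on the other strand.
STARD4: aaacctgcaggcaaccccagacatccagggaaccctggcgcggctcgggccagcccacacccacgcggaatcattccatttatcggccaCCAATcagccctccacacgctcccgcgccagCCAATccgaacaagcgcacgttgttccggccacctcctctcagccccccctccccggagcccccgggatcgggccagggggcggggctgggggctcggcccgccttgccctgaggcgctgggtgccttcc
ABCA1: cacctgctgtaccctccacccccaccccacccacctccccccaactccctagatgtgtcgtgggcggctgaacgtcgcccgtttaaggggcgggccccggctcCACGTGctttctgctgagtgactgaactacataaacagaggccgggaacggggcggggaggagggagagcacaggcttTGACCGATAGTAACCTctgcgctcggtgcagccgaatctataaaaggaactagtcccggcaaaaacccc
SCD: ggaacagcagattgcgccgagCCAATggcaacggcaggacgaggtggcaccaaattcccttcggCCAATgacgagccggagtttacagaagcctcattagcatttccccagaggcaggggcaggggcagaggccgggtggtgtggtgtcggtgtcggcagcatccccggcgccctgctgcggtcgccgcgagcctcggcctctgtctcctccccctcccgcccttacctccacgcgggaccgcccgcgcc

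Of the 34 genes, 29 were found in the promoter table, with 40 windows, and SQLE, FASN, FDFT1, ACAT2 and ABCG1 were not searched. CCAAT, the site of the factor NF-Y that works beside SREBP, was found on either strand in 20 of the 29 genes (24 of 40 windows, 60.0%), against 32.7% of 22199 windows of protein-coding genes. GGGCGG, the GC box, was in 36 of the 40 windows (90.0%), against 53.7% of those of protein-coding genes. The E-box CACGTG was in 5 windows (12.5%), against 7.37%, from 4 genes: ABCA1, INSIG1, SC5D and SCAP. The classical sterol regulatory element of 10 bases was found on either strand only in SREBF2, at -134 to -125 from the start, and in 0.0342% of all 35116 windows. The looser TCACNCCAC was also in SREBF2 alone among the genes and in 0.883% of all windows. The liver X receptor element, a direct repeat of AGGTCA with 4 bases between, was in none of the 29 genes and in 0.0142% of windows. With 1 base left free in each copy it was in ABCA1, at -69 to -54, and in 0.0797% of windows; this form was written with the ABCA1 sequence known. Of the 29 genes, 8 had more than 1 start. Windows overlapped in genes such as SC5D, ACLY, INSIG2, IDI1 and HMGCS1, so a single site can count in more than 1 window. The background windows were not matched for expression or base content. These are matches of letters, not measured binding.

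The genes differed widely in level in the solvent controls. In the mevalonate pathway, FDPS, which makes farnesyl pyrophosphate, was the most abundant, with 75.8, 70.7 and 72.7 FPKM in DMSO at 24 h. Among the enzymes from squalene to cholesterol EBP, the sterol isomerase, led with 54.5, 44.1 and 53.0 FPKM. INSIG1, which retains SCAP, had 18.3, 21.0 and 19.2 FPKM. NR1H2, which encodes liver X receptor beta, had 32.7, 22.6 and 34.3 FPKM, and SCD had 43.9, 48.0 and 49.4 FPKM. At the low end, the sterol reductase TM7SF2 had 1.83 ± 0.298 FPKM (SD, n = 3), INSIG2 had 1.67 ± 0.169 FPKM and the export pump ABCG1 had 0.503 ± 0.0769 FPKM. The neighbours FDPS, ACLY, EBP and SCD, at group means of 73.1, 52.4, 50.5 and 47.1 FPKM, were separated beyond their spread only between FDPS and the rest.

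**Figure D1:**
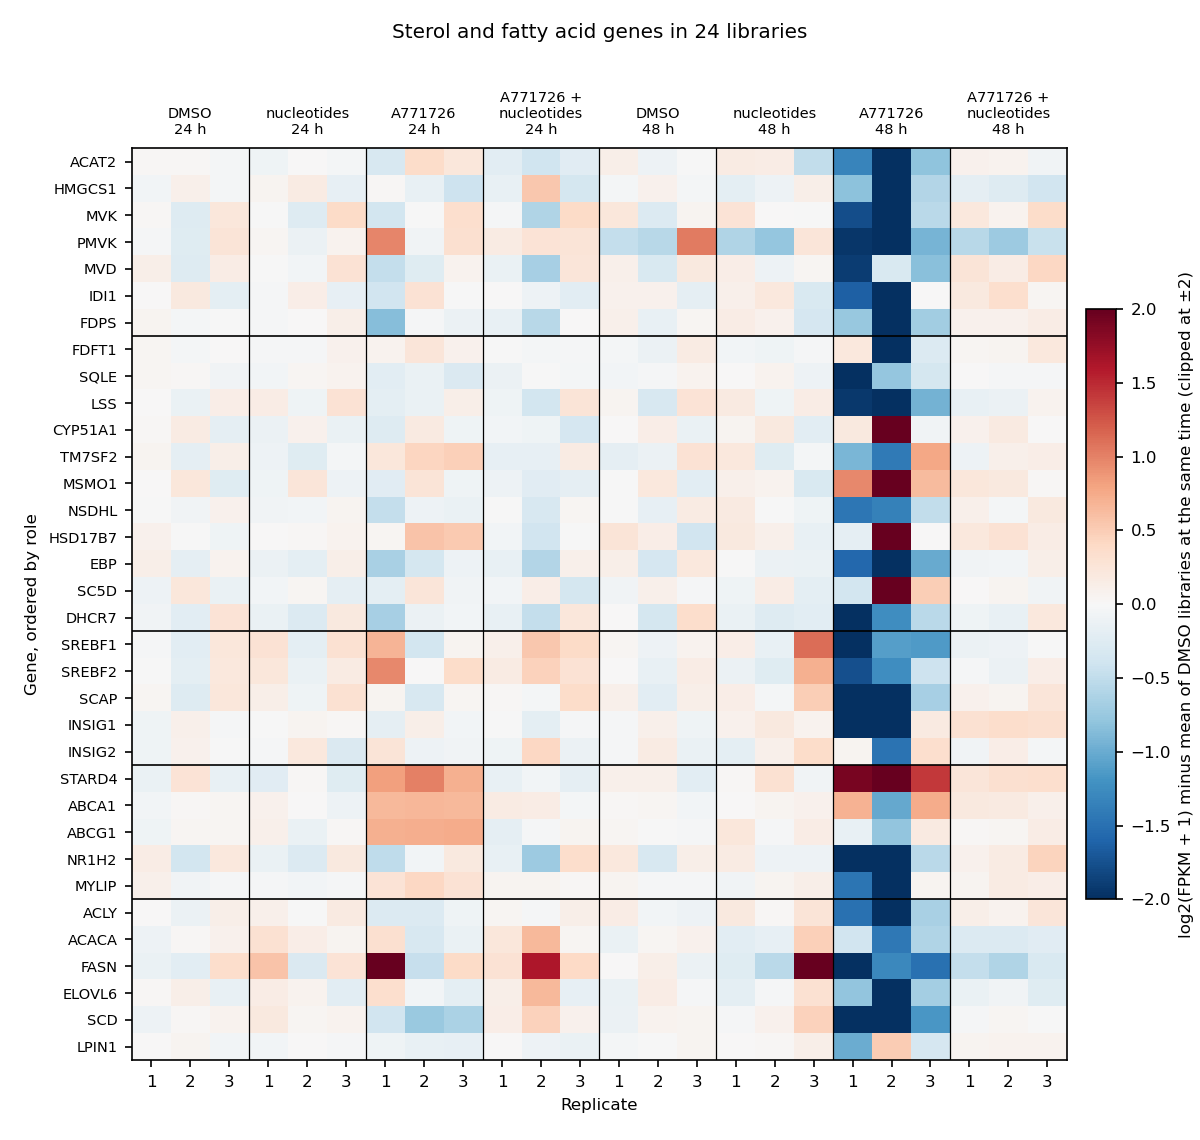
Each of the 34 genes (rows, in the order of their roles, with black lines between role groups) in each of the 24 libraries (columns, 3 replicates per group), as log2(FPKM + 1) minus the mean of the DMSO libraries at the same time. STARD4, ABCA1 and ABCG1 are higher in all 3 A771726 libraries at 24 h and close to DMSO when nucleotides were present, and the A771726 libraries at 48 h differ among themselves.

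The first question was which of these genes responded to A771726 at 24 h. STARD4 and ABCA1 rose in A771726 and no gene of the set fell. STARD4 had 4.40, 6.18 and 4.35 FPKM in DMSO and 9.44, 10.9 and 8.73 FPKM in A771726. ABCA1 had 2.73, 2.91 and 2.95 FPKM in DMSO and 5.09, 5.15 and 5.04 FPKM in A771726. For both genes every A771726 library lay above every DMSO library. The log2 fold change, on the scale of log2(FPKM + 1), which understates changes of low genes, was 0.85 (SE 0.153, limma, Benjamini-Hochberg adjusted p = 0.00115) for STARD4 and 0.66 (SE 0.0887, limma, adjusted p = 6.42e-05) for ABCA1.

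These 2 were 6.06% of the 33 genes tested, and 6.55% of all 11485 tested genes rose in the same comparison, so the share was near the background. No gene of the set fell, against 4.62% of all genes. The median log2 fold change of the 33 genes was -0.03 and that of all tested genes was 0.02. The count depended on the A771726 libraries at 48 h, which share the estimate of spread, and on the scaling. Replicates 1 and 3 were the only fitted libraries of that group. Without either of them a single library is left there, which adds nothing to the spread. The fits without replicate 1 and without replicate 3 thus have nearly the same spread and are a single check at 24 h. With all 24 libraries 0 genes were called, against 0.49% of all genes higher and 0.457% lower. Without replicate 1 or without replicate 3 of A771726 at 48 h 5 were called. In both of the latter, MYLIP rose beside STARD4 and ABCA1, and SCD and SQLE fell (9.09% and 6.06%, against 12.7% and 11.1% of all genes). With only the 24 h libraries 3 rose and 1 fell (9.09% and 3.03%, against 9.64% and 7.77%). Under TPM scaling, where the median of all genes was 0.47, 9 rose and 0 fell (27.3%, against 40% of all genes higher), and under median-of-ratios scaling ABCA1 rose, SCD fell and STARD4 was not called. The median SE of all genes was 0.210 with 23 libraries, 0.377 with 24 and 0.154 with 22.

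ABCG1, which exports cholesterol to lipoproteins, lay under the minimum mean of 1 FPKM and was not tested with the others. It had 0.414, 0.549 and 0.547 FPKM in DMSO and 1.45, 1.48 and 1.52 FPKM in A771726 at 24 h. The groups did not overlap. Where no minimum was set, its log2 fold change was 0.72 (SE 0.0841, limma, adjusted p = 2.30e-05). MYLIP, the ligase that marks lipoprotein receptors for degradation and another target of the liver X receptor, had 4.73, 4.08 and 4.25 FPKM in DMSO and 5.44, 6.15 and 5.51 FPKM in A771726. Its groups did not overlap, but it did not pass the test (log2 fold change 0.32, adjusted p = 0.415 by limma). NR1H2 itself had 20.4, 28.2 and 33.9 FPKM in A771726, within the range of DMSO but for the first.

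SCD was the gene with the most negative value. It had 35.8, 27.9 and 29.98 FPKM in A771726 against 43.9 to 49.4 FPKM in DMSO. The groups did not overlap. Its log2 fold change of -0.58 (SE 0.229) did not pass (limma, adjusted p = 0.118). It passed when only the 24 h libraries, only the groups compared, or 22 libraries were fitted, and under median-of-ratios scaling.

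**Figure D2:**
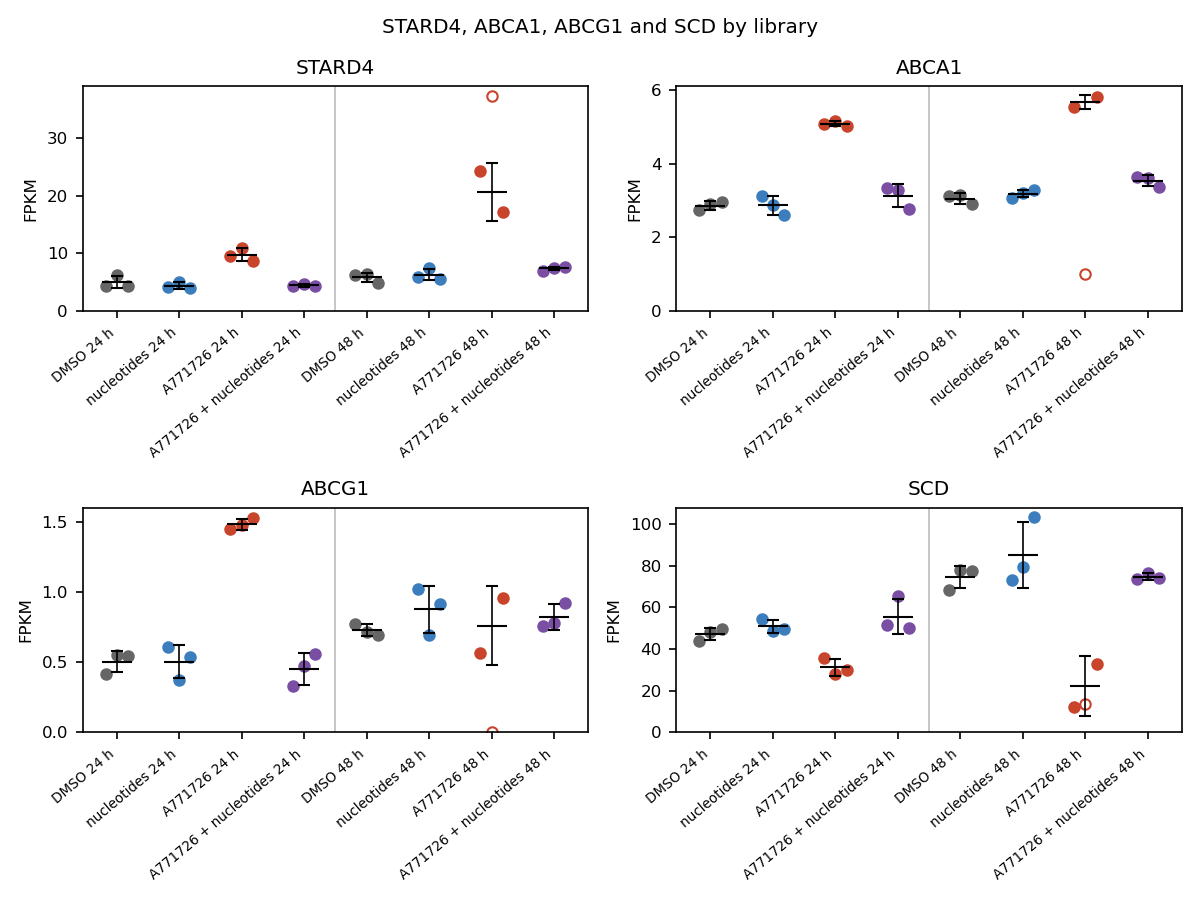
FPKM of STARD4, ABCA1, ABCG1 and SCD in every library (points, 3 per group), with the mean and SD of each group (black bars); the open circle is replicate 2 of A771726 at 48 h, which is not in the mean. At 24 h the A771726 libraries of STARD4, ABCA1 and ABCG1 lie above all other libraries of that time, and those of SCD lie below them.

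The 18 enzymes of the mevalonate pathway and of the steps from squalene to cholesterol had no call at 24 h. Of these, 1 had an unadjusted p under 0.05 by limma, the only tool run, against 2768 of all 11485 tested genes. Their log2 fold changes ran from -0.37 (EBP) to 0.41 (PMVK, phosphomevalonate kinase), with SE from 0.116 to 0.369. The median was -0.04. The gene with the unadjusted p under 0.05 was HSD17B7, a sterol ketoreductase, with 7.66, 7.10 and 6.70 FPKM in DMSO and 7.38, 11.1 and 10.7 FPKM in A771726. Its log2 fold change was 0.38 (SE 0.167, limma, adjusted p = 0.169). The groups overlapped, since the first A771726 library lay within DMSO. The summed FPKM of the 18 enzymes was 307 to 322 in DMSO and 237 to 326 in A771726. FDPS had 40.1, 71.8 and 67.5 FPKM and EBP had 31.9, 39.01 and 46.7 FPKM in A771726, the first library being the lowest for both.

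The 5 genes of SREBP control also had no call, with a median of 0.03. By limma 0 of them had an unadjusted p under 0.05, against 2768 of all 11485 tested genes. INSIG1, a classical SREBP target, had 17.1, 21.3 and 18.6 FPKM in A771726, within or near the DMSO values. SREBF2 had 6.57, 5.68 and 7.84 FPKM in DMSO and 13.9, 6.69 and 8.86 FPKM in A771726, so that its groups overlapped. In the fatty acid group, ACLY (which makes cytosolic acetyl-CoA), ACACA (which makes malonyl-CoA), FASN (fatty acid synthase), ELOVL6 (an elongase), and LPIN1 (a phosphatidate phosphatase) were not called, and neither was SCD. Over the whole set, groups did not overlap for 5 genes that were higher (FDFT1, TM7SF2, STARD4, ABCA1 and MYLIP, 15.2% of 33) and for 4 that were lower (SQLE, NSDHL, SCD and LPIN1, 12.1%). Among all genes tested these shares were 19.2% and 16.0%, so neither share passed the background.

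**Figure D3:**
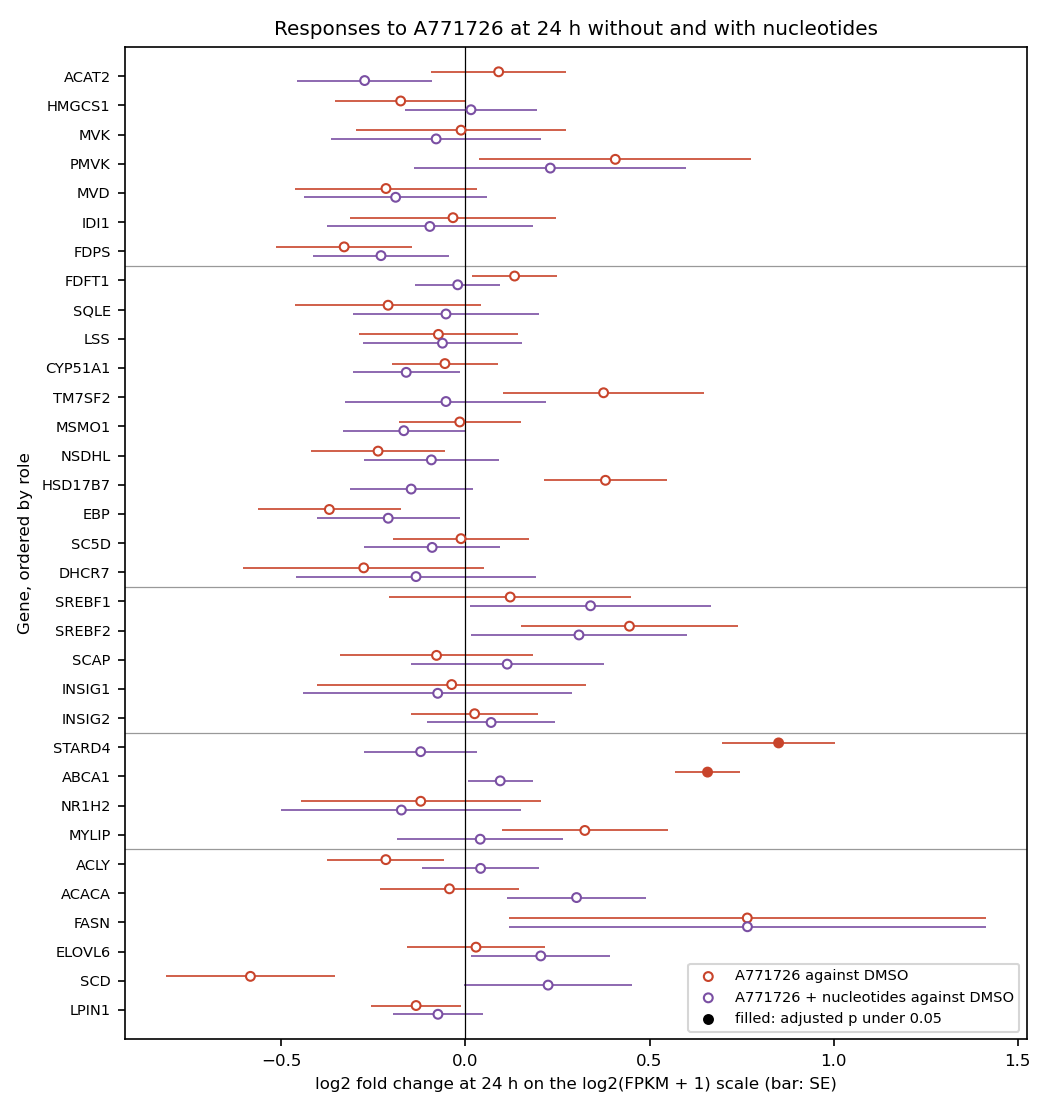
Log2 fold change against DMSO at 24 h, on the log2(FPKM + 1) scale with SE bars, of the 33 tested genes (rows, by role) for A771726 alone (red) and A771726 with nucleotides (purple); filled points passed the adjusted p of 0.05. Only STARD4 (0.85) and ABCA1 (0.66) in A771726 alone are filled.

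The next question was whether nucleotides reversed these responses. Adding nucleotides to A771726 lowered STARD4 and ABCA1 and raised SCD at 24 h. STARD4 had 4.37, 4.72 and 4.24 FPKM in A771726 with nucleotides, within the range or just under DMSO, and its log2 fold change against A771726 was -0.97 (SE 0.153, limma, adjusted p = 0.000374). ABCA1 had 3.33, 3.29 and 2.77 FPKM, with a log2 fold change of -0.56 (SE 0.0887, limma, adjusted p = 0.000386). SCD had 51.5, 65.3 and 49.8 FPKM, with a log2 fold change of 0.81 (SE 0.229, limma, adjusted p = 0.0346). In all 3 genes the libraries with nucleotides did not overlap with those of A771726 alone. The 2 genes that fell were 6.06% of 33, against 5.47% of all genes, and the gene that rose was 3.03%, against 2.34%. Groups did not overlap for 3 genes that were higher with nucleotides (SQLE, ACLY and SCD, 9.09%, against 8.5% of all genes) and for 6 that were lower (FDFT1, TM7SF2, HSD17B7, STARD4, ABCA1 and MYLIP, 18.2%, against 14.5%). The call of ABCA1 was lost with all 24 libraries, under median-of-ratios scaling (adjusted p = 0.0665 by limma), under quantile scaling (0.0620) and with only the groups compared (0.0699), and that of STARD4 with all 24 libraries (0.0553). The call of SCD was lost with all 24 libraries, with only the groups compared, at a minimum mean of 5 FPKM, without replicate 2 or 3 of A771726 at 24 h and without any 1 of the 3 libraries of A771726 with nucleotides at 24 h.

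ABCG1 had 0.332, 0.471 and 0.556 FPKM with both agents, all under the A771726 libraries, and its log2 fold change without a minimum level was -0.78 (SE 0.0841, limma, adjusted p = 1.25e-05). HSD17B7 had 6.86, 5.27 and 7.06 FPKM, below all A771726 libraries, with a log2 fold change of -0.53 that did not pass (limma, adjusted p = 0.0627). Between A771726 with nucleotides and DMSO, 0 of the 33 genes were called at 24 h by limma, and 0 had an unadjusted p under 0.05. Of all genes, 0.00871% were called in each direction, and 112 of 11485 had an unadjusted p under 0.05 by limma. Groups did not overlap for SCD, which was higher, and for ACAT2, the cytosolic thiolase at the head of the pathway, which was lower (3.03% each, against 4.06% and 7.97% of all genes).

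The difference itself, the A771726 response without nucleotides minus that with nucleotides present in both arms, was tested as an interaction at 24 h. ABCA1 was the gene called, with a difference of 0.56 (log2, SE 0.125, limma, adjusted p = 0.0201), 1 of 33 genes or 3.03% against 1.71% of all genes. No gene of the set was called with a negative difference, against 0.618% of all genes. STARD4 had 0.83 (SE 0.216, limma, adjusted p = 0.0531) and SCD had -0.70 (SE 0.323, limma, adjusted p = 0.462). ABCG1 had 0.77 in the fit without a minimum level (SE 0.119, limma, adjusted p = 0.00102). The ABCA1 call was lost without replicate 1 of DMSO, replicate 1 of nucleotides or replicate 3 of A771726 with nucleotides at 24 h. STARD4 joined it without replicate 2 of DMSO at 24 h, and both STARD4 and SCD joined it without replicate 1 or 3 of A771726 at 48 h. The fits without replicate 1 and without replicate 3 of that group have nearly the same spread and are a single check. The ABCA1 call was also lost with all 24 libraries and under TPM, quantile and median-of-ratios scaling.

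Nucleotides alone left no call in the set at either time: by limma 0 of 33 genes passed and 0 had an unadjusted p under 0.05, against 0.0% of all genes higher and 0.00871% lower at 24 h and 0.0% in both directions at 48 h. STARD4 had 4.07, 5.04 and 3.99 FPKM with nucleotides at 24 h, ABCA1 had 3.11, 2.87 and 2.62 FPKM, and SCD had 54.3, 48.6 and 49.6 FPKM. All 3 genes overlapped with DMSO, and in 0 genes of the set did the groups not overlap at either time (1.48% of all genes higher and 1.19% lower at 24 h, 1.59% and 1.09% at 48 h). Fold changes ran from -0.15 to 0.18 on the log2 scale at 24 h and from -0.38 to 0.45 at 48 h. Of all 11485 tested genes, 30 at 24 h and 66 at 48 h had an unadjusted p under 0.05 by limma.

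Of 108 genes in 6 further lists of lipid metabolism, a few were called at 24 h in A771726 against DMSO. In sterol uptake, storage and movement 2 of 19 tested genes rose (10.5%, against 6.55% of all genes) and 0 fell (against 4.62%). NR1H3, which encodes liver X receptor alpha, had 4.15 to 5.30 FPKM in DMSO and 6.98 to 9.87 FPKM in A771726 (log2 fold change 0.69, SE 0.205, limma, adjusted p = 0.0373). With nucleotides it had 3.21 to 5.84 FPKM, and fell from A771726 by 0.72 on the log2 scale (limma, adjusted p = 0.0347). The lipoprotein receptor VLDLR had 0.880 to 0.907 FPKM in DMSO and 1.39 to 1.92 FPKM in A771726 (a log2 value of 0.45 by limma, adjusted p = 0.0442). The minimum mean of 1 FPKM was taken over all fitted libraries, those of A771726 included. The entry of VLDLR to the test, and so 1 of the 2 rises, may therefore rest on the groups where it was high. NPC2, a lysosomal sterol carrier, was not called (-0.36). The beta receptor NR1H2 was not called, and a difference between the 2 receptors was not tested. The calls in these further lists are from the fit of 23 libraries alone.

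In the other lists, calls were single genes that fell, 8.33% of a list of 12 and 5.26% of a list of 19, against 4.62% of all genes, so these shares were near the background. In SREBP cleavage and sterol sensing 1 of 12 fell, UBE2G2, a ubiquitin-conjugating enzyme of the endoplasmic reticulum (log2 fold change -0.55, limma, adjusted p = 0.0100). In the isoprenoid branches 1 of 12 fell, RABGGTB, a subunit of the enzyme that prenylates Rab proteins, from 67.0 to 90.4 FPKM in DMSO to 34.2 to 49.5 FPKM in A771726 (-0.94, limma, adjusted p = 0.00403); PDSS1, of ubiquinone synthesis, was not called (-0.35). In fatty acid activation, elongation and desaturation 1 of 19 fell, PTPLAD1, a dehydratase of chain elongation (-0.54, limma, adjusted p = 0.0148), and ACSL3, an acyl-CoA synthetase, was not called (0.55). In fatty acid oxidation 0 of 16 were called and in glycerolipid and phospholipid synthesis 0 of 21. In these lists 4 and 5 genes had an unadjusted p under 0.05 by limma, against 2768 of all 11485 tested genes. ETFA had -0.25 and PTDSS1 had -0.37.

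Some marker genes moved with A771726 at 24 h beside ABCA1, ABCG1 and STARD4. The summed FPKM of 7 leukocyte markers was 7.54 to 8.64 in DMSO, 24.0 to 37.2 in A771726 and 7.19 to 7.78 in A771726 with nucleotides. The lysosomal gene CD68 (1.80) and the lysozyme gene LYZ (1.65) rose by limma on the log2 scale, while the other 5 markers, among them PTPRC, the pan-leukocyte marker, did not pass 0.147 FPKM. The 6 fibroblast markers summed to 1.93 to 2.16 in DMSO and 4.44 to 5.15 in A771726, with LUM (0.85) and PDGFRB (0.53) called and COL1A1 at no more than 0.239 FPKM in any of 23 libraries. The 4 hepatocyte markers summed to 0.283 to 0.522 in DMSO and 1.19 to 1.39 in A771726. The 6 keratinocyte markers summed to 13.1 to 15.4 in DMSO and 11.5 to 16 in A771726, with 0 of the 2 tested called. The 7 markers of the melanocyte lineage, to which the line itself belongs, summed to 57.1 to 67.3 in DMSO and 90.1 to 105 in A771726, with MITF called (0.85). Their part in the responses of the lipid genes was not tested. In bulk RNA, a change in the share of cells and a change in RNA per cell cannot be told apart.

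Time in the solvent alone moved 0 of 33 genes past the test (limma, 48 h against 24 h in DMSO), against 0.00871% of all genes higher and 0.0% lower. Of the 33, 4 had an unadjusted p under 0.05 by limma, against 702 of all 11485 tested genes. The largest values were those of SCD and SREBF2. SCD had 68.3, 77.9 and 77.4 FPKM at 48 h, above all 3 libraries at 24 h (0.65 on the log2 scale; limma, adjusted p = 0.507). SREBF2 had 11.0, 9.86 and 12.2 FPKM at 48 h, above 5.68 to 7.84 FPKM at 24 h (0.65, limma, adjusted p = 0.812). Groups did not overlap for 7 genes that were higher at 48 h (FDFT1, SQLE, SREBF2, ACACA, FASN, ELOVL6 and SCD, 21.2%, against 12% of all genes) and for INSIG1, which was lower (3.03%, against 11.5%). The fits without replicate 1 and without replicate 3 of A771726 at 48 h, given next, have nearly the same spread and are a single check. Without replicate 1 or without replicate 3 of A771726 at 48 h, FDFT1 and SCD were called as higher (6.06%, against 1.07% of all genes in either fit).

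At 48 h the A771726 group rested on replicates 1 and 3, which differed from each other, and the counts at this time depend on them. STARD4, MSMO1 and ABCA1 rose, and 23 of the 33 genes fell. STARD4 had 6.27, 6.31 and 4.90 FPKM in DMSO and 24.2 and 17.1 FPKM in A771726 (log2 fold change 1.65, SE 0.171, limma, adjusted p = 1.65e-06). ABCA1 had 3.11, 3.15 and 2.90 FPKM in DMSO and 5.54 and 5.81 FPKM in A771726 (0.72, SE 0.0992, limma, adjusted p = 2.93e-05). MSMO1, a sterol methyl oxidase, had 10.2, 12.1 and 8.73 FPKM in DMSO and 20.9 and 16.5 FPKM in A771726 (0.80, SE 0.185, limma, adjusted p = 0.00160). In all 3 genes, both replicates lay above every DMSO library.

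The 23 genes that fell were 69.7% of the set, against 57.0% of all tested genes, and the 3 that rose were 9.09%, against 5.74%. The median log2 fold change of the set was -0.97 and that of all genes was -0.68. All 7 genes of the mevalonate pathway fell, from -1.44 (PMVK) to -0.70 (HMGCS1, HMG-CoA synthase), as did 5 of 11 from squalene to cholesterol, 4 of 5 of SREBP control and 5 of 6 of fatty acid synthesis. These falls depended on the scaling and on replicate 1: FDPS and LPIN1 were above 0 under median-of-ratios, TPM and quantile scaling, ELOVL6 under the first 2, HMGCS1 and IDI1 under TPM scaling, and IDI1 without replicate 1. Of the mevalonate genes, MVD alone was called as lower under each of the 3 scalings. Without replicate 1 only replicate 3 is left in the group. There the mevalonate genes ran from -0.92 (PMVK) to 0.015 (IDI1) against the DMSO mean on the log2 scale. FASN had the lowest value, with 16.6, 18.1 and 15.3 FPKM in DMSO and 1.52 and 5.27 FPKM in A771726 (-2.15, SE 0.724, limma, adjusted p = 0.0161). SCD had 12.1 and 32.6 FPKM in A771726, below every DMSO library (-1.84, SE 0.255, limma, adjusted p = 3.03e-05). SREBF1 had 1.64 and 5.76 FPKM, against 12.8 to 14.4 FPKM in DMSO (-1.81, SE 0.367, limma, adjusted p = 0.000630).

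The fall was uneven between the replicates. The median difference of the 34 genes from the DMSO mean was -1.46 in replicate 1, -1.45 in replicate 2 and -0.52 in replicate 3, against -1.09, -1.56 and -0.26 for all tested genes. INSIG1 had 2.22 FPKM in replicate 1 and 18.1 FPKM in replicate 3, below and above the 14.9 to 17.1 FPKM of DMSO. MYLIP had 0.919 and 4.51 FPKM against 4.21 to 4.52 FPKM. Both replicates were below every DMSO library for 21 of the 33 tested genes (63.6%, against 56.7% of all genes) and above them for 3 (9.09%, against 7.29%). ABCG1 had 0.561 and 0.959 FPKM on either side of the DMSO values of 0.690 to 0.774 FPKM. The counts turned on these libraries. Without replicate 1, replicate 3 alone stood for the group, so calls of that fit are not given. With only the groups compared 0 were called, against 0.213% of all genes higher and 0.124% lower. Under median-of-ratios, TPM and quantile scaling, which brought the median of all genes near 0, 8 genes were higher in each (24.2%, against 24.8%, 26.5% and 25.4% of all genes) and 7, 7 and 8 were lower (21.2%, 21.2% and 24.2%, against 24.6%, 20.4% and 21.7%).

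**Figure D4:**
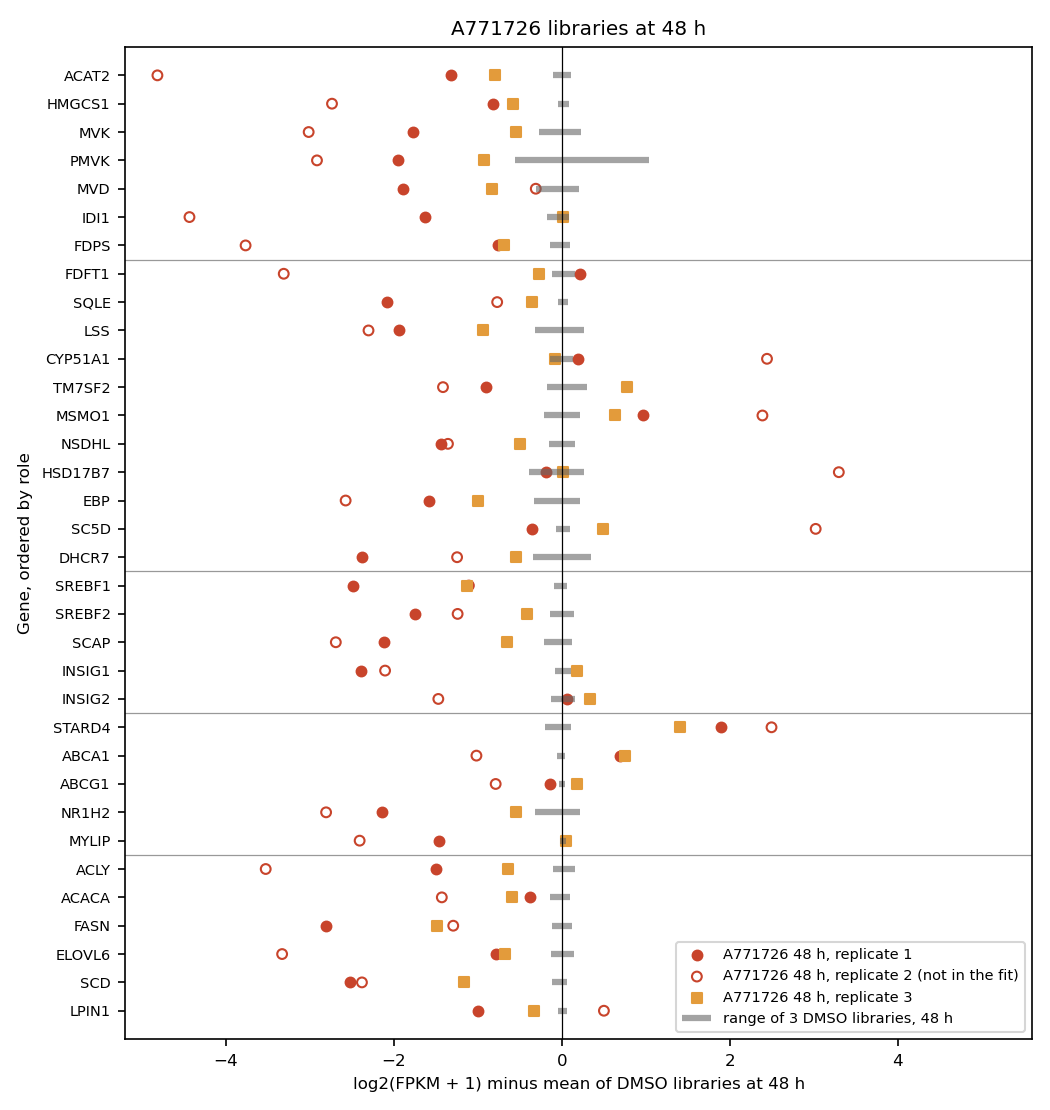
Each A771726 library at 48 h (points) as log2(FPKM + 1) minus the mean of the 3 DMSO libraries at 48 h, for the 34 genes (rows, by role); grey bars span the DMSO libraries and open circles are replicate 2, which is not in the fit. STARD4 and MSMO1 are above DMSO in all 3 libraries, ABCA1 in replicates 1 and 3, and 21 genes are below DMSO in replicates 1 and 3.

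Adding nucleotides to A771726 at 48 h raised 20 of the 33 genes (60.6%, against 56.7% of all genes) and lowered 3 (9.09%, against 5.32%). The 3 were STARD4 (log2 fold change -1.35), MSMO1 (-0.65) and ABCA1 (-0.56). Groups did not overlap for 25 higher genes (75.8%, against 60.2% of all genes) and for these 3 (9.09%, against 8.41%). STARD4 had 7.002, 7.51 and 7.59 FPKM with both agents, ABCA1 had 3.65, 3.61 and 3.36 FPKM and SCD had 73.4, 76.4 and 74.1 FPKM. All 3 libraries of STARD4 and ABCA1 stayed above every DMSO library, by 0.30 and 0.16 on the log2 scale on average, and SCD overlapped with DMSO. Between A771726 with nucleotides and DMSO at 48 h, 0 genes were called by limma, against 0.00871% of all genes higher and 0.0261% lower. In the set 0 had an unadjusted p under 0.05 by limma, against 145 of all 11485 tested genes. Groups did not overlap for INSIG1, STARD4, ABCA1 and MYLIP, which were higher (12.1%, against 6.4% of all genes), and for HMGCS1, ACACA and FASN, which were lower (9.09%, against 6.57%). Calls without replicate 1 of A771726 at 48 h are not given, since replicate 3 alone then stood for that group. With nucleotides added to A771726 and only the groups compared, 0 were called (0.107% and 0.25% of all genes).

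Apart from treatment, FASN varied widely between libraries of the same group. FASN had 62.8 FPKM in replicate 1 of A771726 at 24 h, 36.4 FPKM in replicate 2 of A771726 with nucleotides at 24 h and 76.1 FPKM in replicate 3 of nucleotides at 48 h. The other libraries of these 3 groups had 7.90 and 14.9, 13.97 and 15.1, and 13.8 and 11.2 FPKM. The same 3 libraries, chosen after their values were seen, were the highest of their groups in 9 of the 34 genes: FASN, SREBF1, SREBF2, INSIG2, ACACA, ELOVL6, SCD, HMGCS1 and PMVK. They were the lowest of their groups in 8: ACAT2, MVK, FDPS, MSMO1, NSDHL, HSD17B7, EBP and INSIG1. Of all tested genes, 25.3% were the highest and 20.7% the lowest in all 3, so the pattern was shared by many genes outside the set. SREBF1 had 19.8, 18.03 and 31.2 FPKM in them and SREBF2 had 13.9, 9.56 and 18.7 FPKM.

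STARD4 and ABCA1 did not follow that pattern, since neither was the highest or the lowest of its group in all 3 libraries. Without the 3 libraries, STARD4 (0.87) and ABCA1 (0.66) were still called in A771726 against DMSO at 24 h, and HSD17B7 joined them (9.09%, against 5.63% of all genes higher in that fit). SCD with nucleotides added to A771726 was then not called (log2 fold change 0.79, limma, adjusted p = 0.125). PMVK had a separate high value of 14.5 FPKM in replicate 3 of DMSO at 48 h, against 4.40 and 4.13 FPKM in the other replicates.

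**Figure D5:**
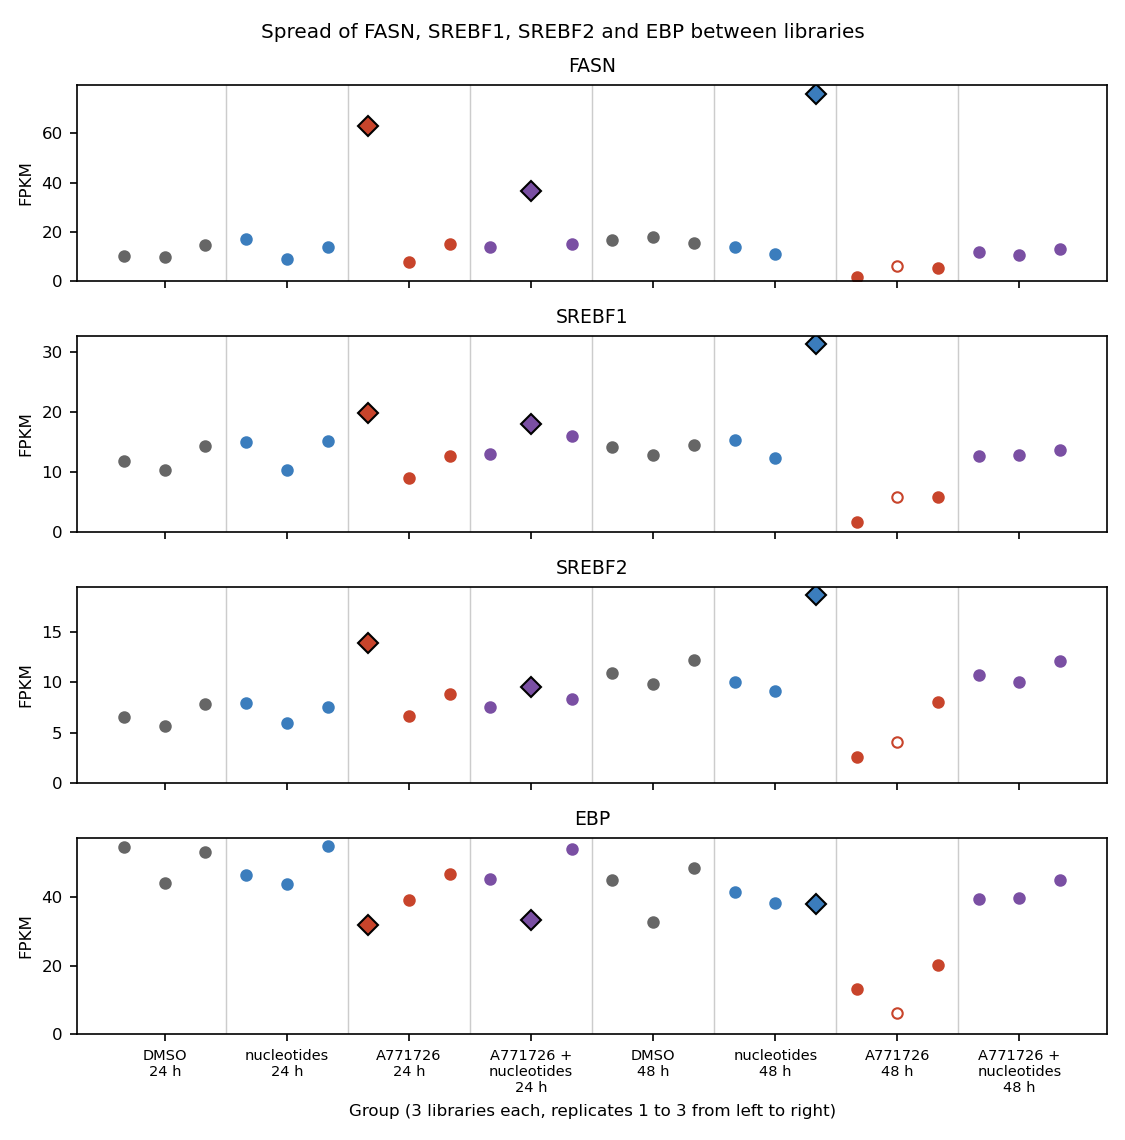
FPKM of FASN, SREBF1, SREBF2 and EBP in all 24 libraries (points, 3 per group); diamonds mark the 3 libraries highest in FASN and the open circle is replicate 2 of A771726 at 48 h. The diamonds are the highest of their groups for FASN, SREBF1 and SREBF2 and the lowest for EBP.

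Several of the genes share exon sequence with neighbours, and the strand setting is not given in the sources used here. STARD4 overlaps its antisense gene STARD4-AS1, which had 0.286 to 0.397 FPKM in DMSO and 1.06 to 1.82 FPKM in A771726 at 24 h. STARD4 had 4.35 to 6.18 FPKM and 8.73 to 10.9 FPKM in the same groups. Reads in the exon sequence that the 2 genes share cannot be told apart without strand. ACAT2 overlaps TCP1 and SOD2, MVK overlaps MMAB, FDPS overlaps RUSC1-AS1, SREBF1 overlaps RAI1 and, on the same strand, TM7SF2 overlaps VPS51, which had a mean of 26.8 FPKM. The levels of all these genes are uncertain for this reason.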

How the data were processed

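RNA of 24 A375 libraries was measured as rRNA-depleted, paired-end RNA-seq, per the labels. The submitters' processing notes name cutadapt, TopHat2 2.0.11, Cufflinks 2.2.1 and the build hg19; annotation, strand setting and filters are not given in the sources used. The authors deposited FPKM per gene without counts, so depth is unknown and no count test was run.

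Here log2(FPKM + 1) was fitted with limma 3.58.1 in R 4.3.3 over 8 groups and 23 libraries, keeping the 11485 genes whose mean reached 1 FPKM. P-values were Benjamini-Hochberg adjusted over all genes within each of 10 comparisons, and genes were called at an adjusted p under 0.05. Replicate 2 of A771726 at 48 h was left out. The genes, lists, that choice and the promoter motifs were chosen with earlier results of these data known. Values are printed per library for genes called at 24 h, the highest of each role group and the largest changes where few were called; others were named after their values were seen. Among 276 pairs of libraries, at most 0.0117% of genes above 0 in both had identical values. The fit was tested on simulated data.

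DMSO libraries of equal number at the 2 times shared deviations across genes (Pearson r 0.125, 0.300 and 0.134). Between A771726 at 24 h and nucleotides at 48 h these values ran from -0.310 to 0.353. Libraries of unlike number were not compared, so whether replicates were paired is not settled, and the labels do not state it. In 48 h against 24 h in DMSO the replicate block moved the calls over all genes from 1 to 47 and left 0 of the 33 genes. Alternatives were other pseudocounts, minimum levels, scalings, sets of libraries, a replicate block, and fits without each library. Fits to the libraries of a single time and without the 3 libraries highest in FASN were added after the data were seen.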

Additional observations from a re-analysis of the deposited data

Results flagged for a closer look

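The response of ABCA1 to A771726 at 24 h differed with and without nucleotides by 0.563 on the log2 scale (limma, adjusted p = 0.0201), by a test of the difference itself, a call shared in this direction by 1.71% of all genes. The call was lost with all 24 libraries (adjusted p = 1.0), under TPM (0.0527), quantile (0.426) and median-of-ratios (0.418) scaling, and without replicate 1 of DMSO, replicate 1 of nucleotides or replicate 3 of A771726 with nucleotides at 24 h (0.0566 to 0.0752). ABCA1 was higher in 3 of 3 A771726 libraries than in every DMSO library, at 5.04 to 5.15 FPKM against 2.73 to 2.95 FPKM.

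Replicate 2 of A771726 at 48 h, which was left out of the 23-library fit and entered the fits with all 24 libraries, had 6 of the 33 tested genes above every DMSO library of that time (18.2%, against 22.1% of all tested genes): CYP51A1, MSMO1, HSD17B7, SC5D, STARD4 and LPIN1. The other 27 were below every DMSO library (81.8%, against 74.1%), and 1 gene held 60.8% of the FPKM of this library. STARD4 had 37.4 FPKM and MSMO1 had 57.9 FPKM there, and 10 of the 34 genes were listed at 0.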

How the results depend on the processing

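In A771726 against DMSO at 24 h 2 genes of the set were called; 0 were with all 24 libraries, 5 with 22, 1 at a mean of at least 5 FPKM (which leaves ABCA1 out), 9 under TPM scaling, where the all-gene median was 0.47 and not 0.02, and 4 with only the 24 h libraries, and 2 to 5 without each library in turn. With nucleotides added at 24 h, 3 were called; 0 with all 24 libraries, 6 with 22, 5 without a minimum level, 1 at 5 FPKM, 6 under TPM scaling, 1 with only the groups compared, and 2 to 6 without each library. The interaction, with 1 call, gave 0 with all 24 libraries, at 5 FPKM, and under TPM and quantile scaling, 3 with 22 libraries and without a minimum level, 2 with only the groups compared, with the replicate block and with only the 24 h libraries, and 0 to 3 without each library; under median-of-ratios scaling the 1 call was SCD. Time in DMSO gave 0 calls, 2 with 22 libraries and 0 to 2 without each library. The fit with 22 libraries is the fit without replicate 1 of A771726 at 48 h, so these are not separate checks. Libraries of equal number in other groups also shared deviations, as DMSO and nucleotides did at 48 h (Pearson r 0.181, 0.06135 and 0.1555), while further pairs had values of both signs. The replicate block moved no other count of the set by over 1.5 times. The shares of all genes called are not set beside the counts of this paragraph. A count that moved between settings is therefore not a result about this set alone.

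A771726 against DMSO at 48 h gave 26 calls; 15 with 22 libraries and under median-of-ratios and TPM scaling, 16 under quantile scaling, 0 with only the groups compared, and 15 to 27 without each library. With nucleotides added at 48 h the 23 calls became 0 with only the groups compared. Of the genes called in a comparison, none turned direction at 24 h in the settings run; among genes not called, 19 of 33 turned in A771726 against DMSO at 24 h under TPM scaling and 11 with 20 libraries. Called genes turned at 48 h. Against DMSO, under median-of-ratios, TPM and quantile scaling in turn, FDPS became 0.12, 0.22 and 0.17 and LPIN1 0.056, 0.15 and 0.040; ELOVL6 became 0.025 and 0.12 under the first 2, HMGCS1 0.084 and IDI1 0.076 under TPM. Without replicate 1 of A771726 at 48 h (22 libraries) IDI1 became 0.015, INSIG1 0.18 and MYLIP 0.053, and their lowest values without another library were -1.63, -2.39 and -1.47. With nucleotides added, ELOVL6 became -0.17, -0.14 and -0.11 under the 3 scalings, FDPS -0.011 and -0.042 under median-of-ratios and quantile, and ABCA1 0.022 with all 24 libraries. The causes were not tested. Comparisons of nucleotides, or of A771726 with nucleotides, with DMSO gave 0 calls in every setting run. With only FPKM, depth cannot be told.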
